A study of Mus musculus with 9 samples.

Results

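The antiviral interferon-stimulated genes are the effector genes that cells switch on to block viral replication. They were followed in mouse pancreatic islets through a list of 49 gene names, matched by symbol. All 49 were among the 56748 genes of the deposited table, and all 49 passed the filter on low counts that left 17276 genes for testing. The tissue was primary islets of C57bl/6 wild-type mice, and total RNA was read in 9 libraries, 3 in each group. The control group had no treatment. Those called inflamed were held for 48 hours with the cytokines IL-1beta, TNF-alfa and IL6. Particle islets received those cytokines together with PD-G-MSNPs, which are polydopamine-coated mesoporous silica nanoparticles built to deliver nutrients. The labels name no interferon among the added cytokines, and a group with particles but no cytokines was not analysed here. The sources used here do not give the age of the mice, nor whether the 3 libraries of a group came from separate animals. The p-values therefore set group differences against the spread among these libraries only, and that spread may be technical.

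Interferons are secreted proteins that warn neighbouring cells of infection. Type I and type III interferons act through separate receptors but activate the same complex of STAT proteins and IRF9, which binds the interferon-stimulated response element (ISRE) in target promoters. Interferon gamma acts mainly through a factor that binds another element, the gamma-activated site (GAS). The genes induced include cytosolic sensors of viral RNA, enzymes that degrade or modify viral RNA, proteins that trap virions at membranes, and ISG15, a ubiquitin-like tag. In islets such a signature has been of interest in type 1 diabetes, because interferon responses have been found in islets early in that disease.

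Library totals ranged from 17832949 counts (particle replicate 1) to 55865759 counts (inflamed replicate 3). Values are given as CPM, read counts scaled to a common library size with TMM factors, which correct for differences in RNA composition. The tissue label was checked on 10 beta cell markers, whose summed level was 341799 to 360112 CPM in control, 123576 to 228971 CPM in inflamed, and 87557, 240209 and 149144 CPM in particle islets. All 10 lay below every control library in both treated groups, as did 28.5% of all tested genes in inflamed and 20.6% in particle islets. At an edgeR adjusted p under 0.05, 9 of the 10 were lower in inflamed and 3 in particle islets. The shares of all genes were 19% and 5.92%. Ins2 was not called in either group. Particle replicate 2 also stood apart within its group in markers of other endocrine cells. It held 7936 CPM of 5 alpha cell markers, against 449 and 93.0 CPM in particle replicates 1 and 3. These markers summed to 7463 to 27473 CPM in control and 113 to 476 CPM in inflamed islets, so particle replicate 2 lay within the control range. The 16 macrophage markers summed to 329 to 414 CPM in control, 1103 to 1241 CPM in inflamed and 369 to 559 CPM in particle islets. Of 12 markers of lymphocytes and plasmacytoid dendritic cells, 6 (Cd3e, Cd2, Ms4a1, Nkg7, Ncr1 and Siglech) had 0 counts in all 9 libraries, and the sum never exceeded 34.2 CPM. In bulk islets, fewer cells of a type and less RNA per cell cannot be told apart.

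To measure how the antiviral genes responded to cytokines that are not interferons, inflamed islets were compared with control islets. Of the 49 genes, 48 rose, 0 fell and 1, Ifitm2, was not called (edgeR quasi-likelihood test, Benjamini-Hochberg adjusted p under 0.05 over all genes tested). Over all tested genes, 20.7% were called higher and 19% lower in the same comparison. The median log2 fold change of the 49 genes was 4.51, beside 0.05 over all genes, and it ranged from 0.44 for Ifitm2 to 10.56 for Zbp1. The 3 inflamed libraries lay above all 3 control libraries for 47 of the 49, a separation found in 28.3% of all genes in that direction. For 40 of the 49 the log2 fold change was among the top 10% of all genes, above 1.97, and for 6 it was among the top 1%, above 7.12. The summed level of the 49 genes was 1186 to 1444 CPM in control and 6306 to 6908 CPM in inflamed islets. Of the 15 macrophage markers tested, 13 rose and 1 fell in the same comparison, and their part in the result was not tested.

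**Figure D1:**
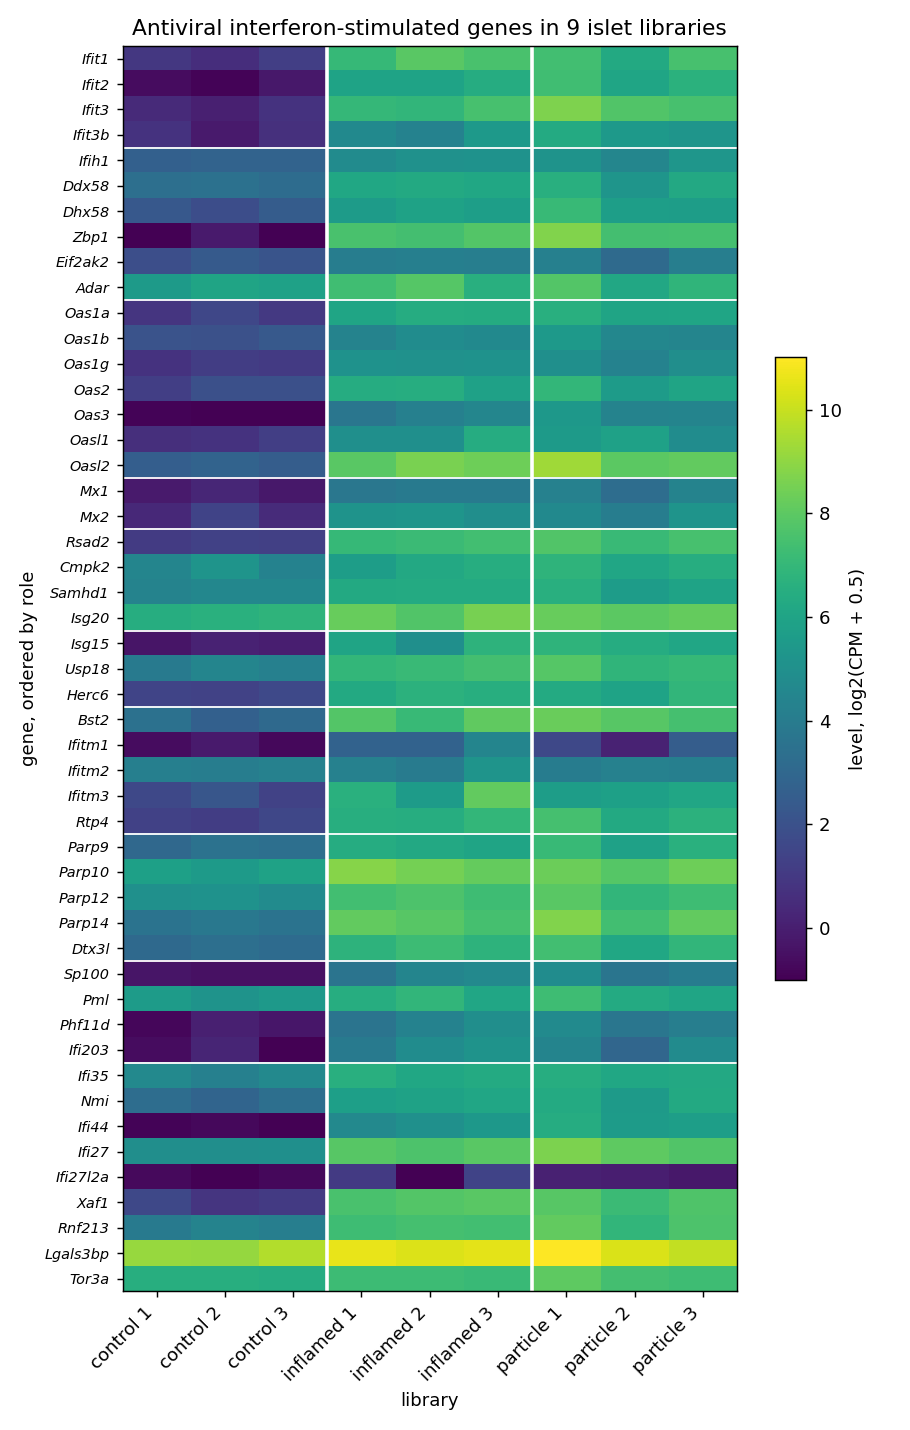
Expression of the 49 antiviral genes in each of the 9 libraries, as the log2 of CPM plus 0.5 (colour), with genes in rows ordered by functional group and libraries in columns. The control columns are darker (lower) than the inflamed and particle columns for nearly every gene, whereas Ifitm2 keeps a like shade across the columns and Ifi27l2a stays dark in all of them.

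The level before treatment differed widely among the antiviral genes. In control islets 13 of them averaged under 1 CPM, 21 between 1 and 10 CPM and 15 at least 10 CPM. The median log2 fold change was 6.59 in the first class (3.89 to 10.56), 4.77 in the second (2.13 to 7.06) and 1.85 in the third (0.44 to 4.25). These classes were set on the control libraries that also enter the fold change, so the order is a description.

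The IFIT genes encode proteins of tetratricopeptide repeats, some of which bind viral RNA that lacks the cap marks of host messages. All 4 rose, with a median log2 fold change of 7.21. Ifit3 (ENSMUSG00000074896, chromosome 19 from 34560931 to 34566131, GRCm39) was counted at 0.867, 0.552 and 1.18 CPM in the control libraries, 129.5, 119 and 184 CPM in the inflamed libraries and 415, 215 and 186 CPM in the particle libraries. The control values were all under those of either treated group, and inflamed and particle values did not overlap either. The rise from control to inflamed was large beside its error (log2 fold change 7.35, SE 0.44, adjusted p = 1.97e-06). Ifit1, which binds the 5' end of foreign RNA, stood at 1.45, 0.966 and 1.83 CPM in control, 133, 249 and 191 CPM in inflamed and 164, 78.3 and 182 CPM in particle islets. Its treated groups overlapped, with particle replicate 2 the lowest of the 6, and all of them exceeded every control (log2 fold change 7.06, SE 0.45, adjusted p = 2.45e-06 for inflamed against control). Ifit2 and Ifit3b had log2 fold changes of 8.43 and 5.05. Ifit3 and Ifit3b are near-identical copies on chromosome 19, so how reads were divided between them is uncertain.

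The cytosolic sensors of viral nucleic acid, with the RNA-activated kinase PKR and the RNA-editing enzyme ADAR1, form a group of 6, all of which rose (median log2 fold change 2.61). Zbp1 (ENSMUSG00000027514, chromosome 2 from 173048405 to 173060716) encodes a sensor of left-handed nucleic acid that can trigger necroptosis. It was at 0, 0.414 and 0 CPM in control, 189, 169.8 and 226 CPM in inflamed and 427, 170.0 and 178 CPM in particle islets. Only control replicate 2 among the untreated libraries held any count, and every treated library was far above it (log2 fold change 10.56, SE 0.86, adjusted p = 2.00e-05). The size of that fold rests on the 9 counts of this control library, and without it the fitted value, 15.36, is set against controls with no count and depends on the prior count. Ifih1 encodes MDA5, which detects long double-stranded RNA, and stood at 5.90, 6.49 and 6.60 CPM in control, 27.3, 33.7 and 34.1 CPM in inflamed and 35.5, 22.3 and 38.7 CPM in particle islets. Its control values were close together and the treated groups overlapped (log2 fold change 2.32, SE 0.24, adjusted p = 6.74e-05 for inflamed against control). Ddx58, which encodes the RNA sensor RIG-I, Dhx58, which encodes LGP2, and Eif2ak2, which encodes PKR, had log2 fold changes of 2.89, 3.68 and 2.13. Adar had the smallest of the group (log2 fold change 1.52, SE 0.40, adjusted p = 0.0118). Adar overlaps Chrnb2 on the opposite strand over 7252 bp, and Chrnb2 averaged 49.7 CPM in inflamed islets, so reads of these genes cannot be told apart unless counting used the strand, which the sources used here do not give.

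The oligoadenylate synthetases (OAS) make a second messenger, short chains of adenylate, when they meet viral RNA, while some OAS-like proteins lack that activity. All 7 rose, with a median log2 fold change of 5.17. Oas1a (ENSMUSG00000052776, chromosome 5 from 121034319 to 121045584) was at 1.32, 2.48 and 1.47 CPM in control, 67.3, 84.96 and 83.04 CPM in inflamed and 95.8, 64.7 and 65.3 CPM in particle islets, so that every treated library exceeded every control library (log2 fold change 5.48, SE 0.31, adjusted p = 1.23e-06 for inflamed against control). Oas1g was at 1.20, 1.75 and 1.58 CPM in control, 34.9, 33.4 and 34.9 CPM in inflamed and 31.3, 19.4 and 29.9 CPM in particle islets. All 3 particle values lay below all 3 inflamed values, although the difference was not called (log2 fold change -0.36, SE 0.22, adjusted p = 0.495). The rise from control to inflamed was called (log2 fold change 4.51, SE 0.27, adjusted p = 1.65e-06). Oas1a and Oas1g are close paralogs, so the division of reads between them is uncertain. Oas3 had 1 count over the 3 control libraries and 12.7, 18.4 and 22.6 CPM in the inflamed libraries. The pooled ratio of inflamed to control was 1436, with a 95% counting interval of 257 to 56757. Oas1b, Oas2, Oasl1 and Oasl2 had log2 fold changes of 2.65, 4.80, 5.17 and 5.80. C57BL/6 mice carry a truncated Oas1b, so the transcript level there says nothing of a functional protein.

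Mx1 and Mx2 encode dynamin-like GTPases that block viruses in the nucleus and the cytoplasm. Both rose. Mx1 (ENSMUSG00000000386, chromosome 16 from 97248235 to 97264107) was at 0.413, 0.736 and 0.359 CPM in control, 12.9, 14.3 and 14.9 CPM in inflamed and 18.8, 9.32 and 20.1 CPM in particle islets (log2 fold change 4.81, SE 0.40, adjusted p = 1.64e-05 for inflamed against control). Mx2 was at 0.785, 2.16 and 0.897 CPM, 35.9, 37.9 and 30.5 CPM and 25.9, 16.6 and 36.8 CPM in the same order (log2 fold change 4.77, SE 0.43, adjusted p = 2.61e-05 for inflamed against control). For both genes particle replicate 2 was the lowest of the 6 treated libraries and still lay above every control. Most inbred strains, C57BL/6 among them, carry defective Mx alleles, so these too are transcript levels only.

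Enzymes of nucleotide and RNA metabolism formed a group of 4, all higher in inflamed islets (median log2 fold change 1.71). Rsad2 (ENSMUSG00000020641, chromosome 12 from 26492745 to 26506451) encodes viperin, which makes a chain-terminating nucleotide. It was at 1.61, 1.98 and 1.94 CPM in control, 133, 146 and 167 CPM in inflamed and 218, 141 and 184 CPM in particle islets. Its values were close within each group, and its adjusted p was the smallest of all genes tested between inflamed and control islets (log2 fold change 6.33, SE 0.26, adjusted p = 4.08e-07). Samhd1, which degrades deoxynucleotides and so starves reverse transcription, rose from 19.99, 23.3 and 22.9 CPM to 77.4, 81.98 and 79.7 CPM and stood at 94.02, 49.5 and 62.9 CPM with particles (log2 fold change 1.85, SE 0.23, adjusted p = 2.53e-04 for inflamed against control). Cmpk2, a mitochondrial nucleotide kinase encoded next to Rsad2, and Isg20, an exonuclease that degrades RNA, had log2 fold changes of 1.46 and 1.56. Both were already above 19 CPM in each control library.

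ISG15 is a ubiquitin-like protein that is attached to other proteins, and Usp18 encodes the protease that removes it and dampens signalling at the type I interferon receptor. All 3 genes of this group rose (median log2 fold change 5.29). Isg15 (ENSMUSG00000035692, chromosome 4 from 156283912 to 156285253) was at 0.289, 0.598 and 0.502 CPM in control, 64.8, 30.7 and 109 CPM in inflamed and 113, 87.2 and 67.8 CPM in particle islets. No control library reached 1 CPM, and the inflamed libraries differed among themselves by more than 3-fold (log2 fold change 7.19, SE 0.53, adjusted p = 6.96e-06). Herc6, which encodes the mouse ligase that attaches ISG15, was at 2.27, 2.07 and 2.66 CPM in control, 77.9, 105 and 91.1 CPM in inflamed and 79.9, 62.2 and 119 CPM in particle islets (log2 fold change 5.29, SE 0.30, adjusted p = 1.23e-06 for inflamed against control). Usp18 was at 14.2, 21.8 and 18.4 CPM in control and 122, 140.3 and 173 CPM in inflamed islets (log2 fold change 3.003, SE 0.30, adjusted p = 5.46e-05).

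Of 5 genes for membrane restriction factors and the receptor chaperone Rtp4, 4 rose (median log2 fold change of the 5, 5.60). Bst2 encodes tetherin, which holds budding virions on the cell surface. It was at 10.7, 5.98 and 8.22 CPM in control, 221, 138 and 267 CPM in inflamed and 305, 238 and 176 CPM in particle islets (log2 fold change 4.65, SE 0.35, adjusted p = 7.57e-06 for inflamed against control). Rtp4 was at 1.98, 1.75 and 2.48 CPM in control and 90.6, 89.3 and 122 CPM in inflamed islets (log2 fold change 5.60, SE 0.35, adjusted p = 2.45e-06). The IFITM proteins hinder fusion of virions with endosomes and cell membranes, and 2 of their 3 genes rose. Ifitm3 (ENSMUSG00000025492, chromosome 7 from 140589499 to 140590683) was at 2.52, 4.09 and 2.08 CPM in control and 99.1, 47.7 and 283 CPM in inflamed islets (log2 fold change 5.64, SE 0.64, adjusted p = 1.76e-04). Ifitm1 rose from 0.165, 0.414 and 0.108 CPM to 6.28, 6.42 and 21.7 CPM (log2 fold change 5.66, SE 0.92, adjusted p = 0.00103). Ifitm2 (ENSMUSG00000060591, chromosome 7 from 140534750 to 140535900) was at 17.6, 16.4 and 18.9 CPM in control and 19.2, 15.6 and 36.8 CPM in inflamed islets, so that only inflamed replicate 3 stood clear of the controls (log2 fold change 0.44, SE 0.29, adjusted p = 0.246). The 95% interval of its log2 fold change was -0.20 to 1.07, which holds both no change and a rise of 2-fold, and without inflamed replicate 3 the value was -0.07. Inflamed replicate 3 was the highest of its group for all 3 IFITM genes. That library also held 2611 CPM of acinar markers, against 27.5 and 33.8 CPM in inflamed replicates 1 and 2. Particle replicate 2 held 2955 CPM of them. Its Ifitm1 was the lowest of the treated libraries (2.51, 0.603 and 5.32 CPM in particle replicates 1 to 3). Within the particle group its Ifitm3 was the middle value (57.2 CPM) and its Ifitm2 the highest (18.7 CPM). Control replicate 2 held 1241 CPM of acinar markers, with the highest Ifitm1 and Ifitm3 and the lowest Ifitm2 of the controls. The part of acinar RNA in the IFITM values was not tested. The IFITM genes are similar in sequence, so some reads may have been assigned to the wrong member.

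The PARP genes of the list encode ADP-ribosyltransferases, most of which curb viral RNA or protein synthesis, and Dtx3l encodes the ubiquitin ligase that works with PARP9. All 5 rose (median log2 fold change 2.96). Parp14 (ENSMUSG00000034422, chromosome 16 from 35653244 to 35691914) was at 11.3, 13.7 and 11.4 CPM in control, 281, 234 and 178 CPM in inflamed and 422, 164 and 279.7 CPM in particle islets (log2 fold change 4.25, SE 0.35, adjusted p = 1.56e-05 for inflamed against control). Dtx3l was at 8.09, 10.03 and 8.57 CPM, 109.7, 151 and 108 CPM and 165, 70.4 and 122 CPM in the same order (log2 fold change 3.79, SE 0.32, adjusted p = 1.61e-05 for inflamed against control). In both genes particle replicate 1 was the highest and particle replicate 2 the lowest of the 6 treated libraries. Dtx3l and Parp9 start 681 bp apart on opposite strands and overlap by 682 bp. Parp9, Parp10 and Parp12 had log2 fold changes of 2.96, 2.77 and 2.47. Parp10 overlaps Plec on the same strand by 1401 bp, and Plec averaged 181 CPM in inflamed islets.

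The 4 nuclear genes also rose (median log2 fold change 6.15). Sp100 and Pml encode the scaffold proteins of PML nuclear bodies, which silence incoming viral genomes. Sp100 was at 0.289, 0.230 and 0.215 CPM in control, 11.9, 21.96 and 24.7 CPM in inflamed and 28.4, 12.2 and 16.2 CPM in particle islets (log2 fold change 6.29, SE 0.47, adjusted p = 7.57e-06 for inflamed against control). Pml, its partner, was at 47.9, 35.8 and 43.5 CPM in control and 88.9, 121 and 68.4 CPM in inflamed islets, from a higher start (log2 fold change 1.13, SE 0.32, adjusted p = 0.0173). Phf11d was at 0.0826, 0.552 and 0.323 CPM in control, 11.8, 19.5 and 30.4 CPM in inflamed and 26.2, 12.9 and 17.3 CPM in particle islets (log2 fold change 6.01, SE 0.58, adjusted p = 4.32e-05 for inflamed against control). Ifi203, of a family of DNA-binding proteins with many similar copies, had a log2 fold change of 6.59, and its reads may be shared with those copies. It had 19 counts in control islets, and its log2 fold change ranged from 2.15 to 8.28 over the alternative settings.

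All 9 of the remaining genes rose (median log2 fold change 2.91). Xaf1 (ENSMUSG00000040483, chromosome 11 from 72192455 to 72204559), which promotes cell death by opposing the inhibitor of apoptosis XIAP, was at 2.56, 1.29 and 1.54 CPM in control, 190.0, 222 and 246 CPM in inflamed and 237, 145 and 209 CPM in particle islets (log2 fold change 6.93, SE 0.34, adjusted p = 7.60e-07 for inflamed against control). Ifi44 (ENSMUSG00000028037, chromosome 3 from 151436559 to 151455597) was at 0.0413, 0.0920 and 0 CPM in control, 24.9, 32.1 and 42.2 CPM in inflamed and 87.4, 47.8 and 52.3 CPM in particle islets. Its rise from control to inflamed was called (log2 fold change 9.50, SE 0.55, adjusted p = 1.48e-06). It had 3 counts in all over the control libraries, and the pooled ratio of inflamed to control was 888, with a 95% counting interval of 304 to 4307. The fitted log2 fold changes of Oas3 and Ifi44, like those of the other genes nearly absent from control islets, depend on the prior count used for such low controls. Ifi27, Rnf213, Nmi and Ifi35 had log2 fold changes of 2.91, 3.23, 2.79 and 1.86. Lgals3bp, a secreted glycoprotein, was the most abundant by CPM, at 576, 558 and 796 CPM in control and 1545, 1319.9 and 1468 CPM in inflamed islets (log2 fold change 1.17, SE 0.30, adjusted p = 0.0112). Tor3a changed least among those that rose (log2 fold change 0.73, SE 0.22, adjusted p = 0.0206), and its 3 inflamed values, 152, 151 and 143 CPM, lay above its control values of 92.5, 90.9 and 86.1 CPM. Ifi27l2a rested on 6 counts in control and 148 counts in inflamed islets, with 0 counts in inflamed replicate 2 (log2 fold change 3.89, SE 1.40, adjusted p = 0.0460), and it was called under only 5 of 17 alternative settings. Adar, Pml, Lgals3bp and Tor3a also lost their call under 1 to 4 of 19 alternative settings each.

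**Figure D2:**
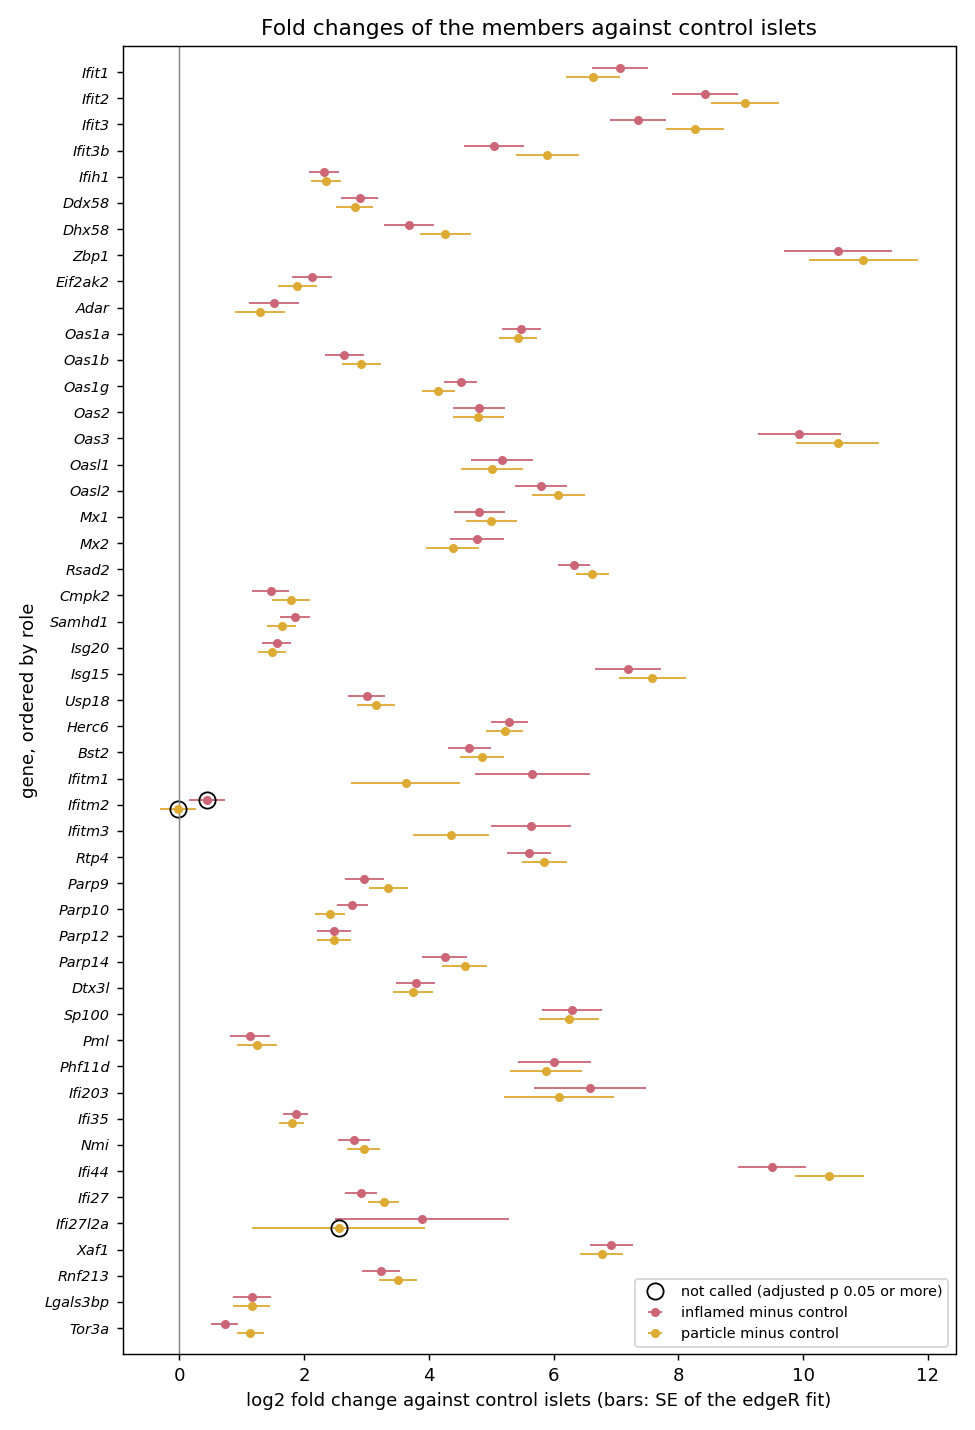
Fold changes of the 49 antiviral genes against control islets on the log2 scale (horizontal axis, bars the SE of the edgeR fit), for inflamed and for particle islets, with open rings around values that were not called. All values but 1 lie above 0, from 0.44 for Ifitm2 to 10.56 for Zbp1 in inflamed islets.

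To describe the promoters of the listed genes, they were searched for ISRE and GAS, the elements that interferon-activated factors bind. A kappaB core, which is not one of those elements, was searched as well. RefSeq promoter windows (GRCm38.p6, 250 bases before to 50 after the start of transcription) were matched by symbol for 35 of the 49 genes. The windows below show how the match is placed in genes that rose steeply (Isg15, Ifit3, Rsad2, Oas1a), and in Ifitm3 and Ifitm2, related genes of which only the first rose. They are read 5' to 3' in the direction of transcription, and capitals mark bases of the ISRE core (GAAA, any 2 bases, GAAA) on either strand. They lie at chr4:156200769-156201068 on the minus strand (Isg15), chr19:34583279-34583578 on the plus strand (Ifit3), and, on the minus strand, chr12:26456403-26456702 (Rsad2), chr5:120907476-120907775 (Oas1a), chr7:141010695-141010994 (Ifitm3) and chr7:140955912-140956211 (Ifitm2).
Isg15: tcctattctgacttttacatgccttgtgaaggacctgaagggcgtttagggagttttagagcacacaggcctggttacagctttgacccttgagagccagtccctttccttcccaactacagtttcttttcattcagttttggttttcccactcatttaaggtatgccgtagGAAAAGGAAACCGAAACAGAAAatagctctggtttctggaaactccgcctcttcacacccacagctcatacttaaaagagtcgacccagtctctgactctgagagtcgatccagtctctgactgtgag
Ifit3: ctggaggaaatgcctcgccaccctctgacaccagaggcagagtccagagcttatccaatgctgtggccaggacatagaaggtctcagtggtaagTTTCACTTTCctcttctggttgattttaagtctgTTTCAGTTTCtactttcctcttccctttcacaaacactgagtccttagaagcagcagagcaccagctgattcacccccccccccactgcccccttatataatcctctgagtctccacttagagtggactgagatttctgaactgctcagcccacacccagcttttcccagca
Rsad2: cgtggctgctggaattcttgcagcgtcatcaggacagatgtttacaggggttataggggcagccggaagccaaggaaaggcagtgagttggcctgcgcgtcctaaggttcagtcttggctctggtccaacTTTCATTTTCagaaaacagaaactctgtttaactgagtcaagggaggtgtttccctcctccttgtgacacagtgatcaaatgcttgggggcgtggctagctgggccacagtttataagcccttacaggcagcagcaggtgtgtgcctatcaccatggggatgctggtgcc
Oas1a: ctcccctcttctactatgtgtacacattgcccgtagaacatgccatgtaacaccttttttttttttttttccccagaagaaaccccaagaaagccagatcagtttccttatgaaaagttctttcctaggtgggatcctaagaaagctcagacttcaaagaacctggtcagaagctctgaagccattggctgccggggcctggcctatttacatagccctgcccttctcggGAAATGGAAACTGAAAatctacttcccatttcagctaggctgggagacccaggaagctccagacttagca
Ifitm3: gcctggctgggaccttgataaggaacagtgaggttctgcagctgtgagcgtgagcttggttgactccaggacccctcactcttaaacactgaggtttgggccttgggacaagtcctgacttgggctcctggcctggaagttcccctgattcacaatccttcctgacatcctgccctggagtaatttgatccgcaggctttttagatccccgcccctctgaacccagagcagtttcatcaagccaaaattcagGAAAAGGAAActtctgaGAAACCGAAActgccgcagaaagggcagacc
Ifitm2: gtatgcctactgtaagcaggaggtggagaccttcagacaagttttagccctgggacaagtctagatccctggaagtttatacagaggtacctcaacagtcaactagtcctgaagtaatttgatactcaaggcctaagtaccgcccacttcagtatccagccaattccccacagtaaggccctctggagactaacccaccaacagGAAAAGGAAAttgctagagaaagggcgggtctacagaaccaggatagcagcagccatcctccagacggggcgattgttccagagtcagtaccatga

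The Isg15 window holds 3 overlapping matches, the first starting 78 bases before the start of transcription. The Ifit3 window holds 2, on the other strand, the farther one starting 156 bases before the start. Rsad2 has 1 match 120 bases before the start, and Oas1a has 2 overlapping ones close to it. In Ifitm3 both matches lie just after the start of transcription. The Ifitm2 window also holds a match, 46 bases before the start, although its transcript was not called. Over both strands, the ISRE core occurred in the windows of 15 of the 35 genes (42.9%), against 3.99% of 27025 genes with a window. Counted by window, the shares were 35.7% of 42 and 3.44% of 32851. The genes were listed by name as interferon-stimulated genes, so these shares describe the list and not the response of these islets. The GAS core (TTC, any 3 bases, GAA) was found for 9 of the 35 genes (25.7%) against 9.55% of all genes, and 2 of its matches overlap an ISRE match. A kappaB core (GGG, any 2 bases, TTTCC) was found for 0 of the 35 and for 1.90% of all genes. With so low a share, 0 of 35 is not informative. The median log2 fold change from control to inflamed islets was 5.48 for the 15 genes with an ISRE match (0.44 to 9.94) and 3.51 for the 20 without (1.13 to 9.50). Those ranges overlap almost wholly, and Ifi44, at 9.50, has no ISRE match in its window. For the GAS core the order was the opposite. The median was 2.13 for the 9 genes with a match (1.52 to 8.43) and 5.23 for the 26 without (0.44 to 9.94). A match describes letters in a window and not a bound site, and the absence of one says only that these letters are not there.

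**Figure D3:**
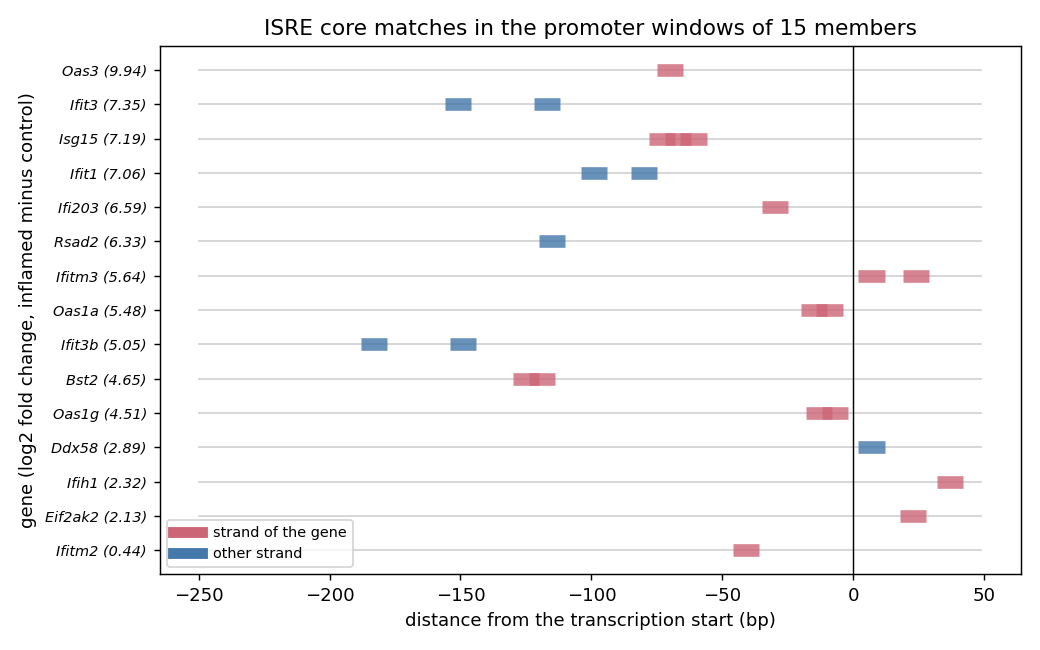
Positions of the ISRE core in the promoter windows of the 15 antiviral genes that hold it, as distance in bases from the start of transcription (horizontal axis) with the strand in colour and the log2 fold change of inflamed against control beside each symbol. Of 24 matches, 19 lie within 200 bases before the start, and the median position is -69.

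Levels per length were compared on FPKM, which corrects for gene length. In inflamed islets the highest were Lgals3bp at 494 ± 34.5 FPKM (SD, n = 3), Bst2 at 225 ± 70.4, Ifitm3 at 207 ± 180.3, Isg20 at 155 ± 42.6 and Ifi27 at 151 ± 13.2 FPKM. Of these 5, Lgals3bp stands clear of the next gene, and the other neighbours in this order do not differ beyond their spread. The lowest were Oas3 at 2.47 ± 0.711 FPKM, Sp100 at 2.53 ± 0.8996, Ifi27l2a at 2.57 ± 2.33, Eif2ak2 at 3.26 ± 0.172 and Ifih1 at 3.79 ± 0.503 FPKM, which again lie within about 1 SD of their neighbours in order. The viral RNA sensors MDA5 and PKR were thus among the least abundant of these transcripts per length in inflamed islets.

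To place the antiviral genes within their pathway, 53 other genes of interferon signalling were examined, of which 39 were tested. In inflamed against control islets 28 of the 39 rose and 0 fell, beside 20.7% and 19% of all genes. Of 15 interferon ligand genes only Ifnl2 and Ifnl3, which encode the type III interferons called lambda, passed the filter, and both rose. Ifnl3 was at 0.0826, 0.0920 and 0 CPM in control, 52.96, 21.5 and 22.1 CPM in inflamed and 124, 72.7 and 25.9 CPM in particle islets (log2 fold change 9.08, SE 0.90, adjusted p = 7.40e-05 for inflamed against control). Ifnl2 had 0 counts in control and 32.5, 14.5 and 15.4 CPM in inflamed libraries, at least 468-fold higher when control is set to 3 counts over the group. The 2 genes are close paralogs and share reads uncertainly. Ifng, the gene of type II interferon, and 8 interferon alpha genes had 0 counts in all 9 libraries. Ifnb1, the interferon beta gene, had 0 counts in 8 libraries and 8 counts in particle replicate 1. Ifnab, another ligand on the list, had 0 counts in control, 2 in inflamed and 31 in particle islets, too few to be tested. Its particle values of 0.295, 0.121 and 0.959 CPM all lay above its inflamed values of 0.0930, 0 and 0 CPM. That separation rests on a few counts, and 8.87% of all tested genes were separated in the same direction. These counts describe RNA at 48 hours only.

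Among 9 receptor and Janus kinase genes, 5 rose. Ifngr2, a chain of the interferon gamma receptor, averaged 12.4 ± 1.03 CPM (SD, n = 3) in control and 118 ± 5.83 CPM in inflamed islets (log2 fold change 3.25, SE 0.26, adjusted p = 1.11e-05), Jak2 had a log2 fold change of 2.52, and Ifnar2, a chain of the type I receptor, one of 1.69. Ifnlr1, the chain particular to type III interferons, was at 1.65, 0.966 and 2.01 CPM in control and 3.25, 5.36 and 1.69 CPM in inflamed islets and was not called (adjusted p = 0.0978). Of 9 STAT and IRF genes, which encode the transcription factors of the response, 8 rose. Irf7, the amplifier of interferon production, averaged 4.95 ± 1.10 CPM in control and 313 ± 82.1 CPM in inflamed islets (log2 fold change 5.98, SE 0.32, adjusted p = 1.23e-06), and Irf8 and Irf5 had log2 fold changes of 3.49 and 2.79. Irf3, which is activated by phosphorylation, was the one not called (log2 fold change -0.19, adjusted p = 0.454). Of 10 tested adaptors and kinases downstream of the sensors 7 rose, among them Myd88, Ikbke and Sting1 at log2 fold changes of 1.73, 2.32 and 2.39. All 3 genes of ISG15 conjugation rose: Ube2l6 and Uba7, which charge ISG15, at log2 fold changes of 4.87 and 3.88, and Trim25 at 0.95. Of 5 feedback inhibitors 3 rose, Socs1, Ptpn2 and Socs3, at 5.73, 1.46 and 1.23.

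**Figure D4:**
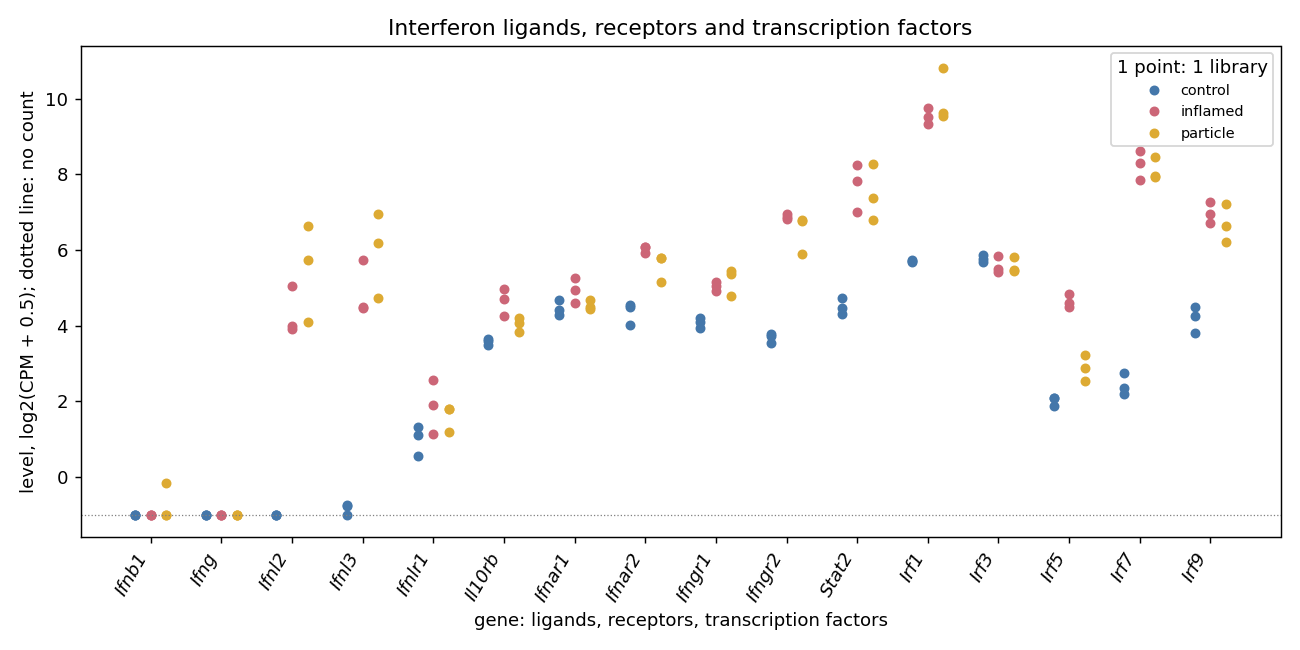
Expression of interferon ligands, receptors and transcription factors in the 9 libraries, as the log2 of CPM plus 0.5 (1 point for each library, colour for the group, dotted line at no count). Ifnl2 and Ifnl3 lie well above the dotted line in all 6 treated libraries, whereas Ifng stays on it in all 9.

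To ask whether the particles altered the antiviral response, particle islets were compared with inflamed islets. None of the 49 genes was called in either direction by edgeR's quasi-likelihood test, which called 0% of all genes higher and 0% lower in this comparison. At an unadjusted p under 0.05, edgeR gave 4 of the 49 (Ifit3, Ifi44, Ifitm1 and Ifitm3) and 2603 of all genes (15.1%). DESeq2 called 487 genes higher and 296 lower at the same adjusted threshold, and 0 of the 49 were among them. Without particle replicate 3, edgeR called 636 genes higher and 306 lower, again with 0 of the 49. The log2 fold change of particle against inflamed was above 0 for 25 genes and below 0 for 24, with a median of 0.01 beside 0.04 over all genes and a range from -2.03 to 0.92. For 29 of the 49 the 95% interval of that value, unadjusted, lay wholly inside a 2-fold change in either direction. For 10 it reached a 2-fold rise, for 9 a 2-fold fall and for 1 both, so a change of that size is not excluded for those genes. No gene of the whole table reached the edgeR threshold in this comparison (smallest adjusted p = 0.0638). Irf5 was at that value, with a log2 fold change of -1.80 (SE 0.25). The smallest adjusted p among the 15 macrophage markers tested was the same. Of the 39 other pathway genes 8 lay above 0 and 31 below, where 53.0% of all genes lay above 0. Particle and inflamed libraries did not overlap for 0 of the 39 upward and 8 downward, beside 8.87% and 6.82% of all genes. At an unadjusted edgeR p under 0.05 there were 10 of the 39, beside the same 15.1%. Macrophage markers also lay lower in particle islets, 14 of the 15 below 0 and 13 without overlap. Their part in the pathway values was not tested.

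The 5 genes highest in particle against inflamed islets were Ifit3, Ifi44, Ifit3b, Ifit2 and Oas3. Ifit3 had a log2 fold change of 0.92 (SE 0.33, 95% interval 0.20 to 1.64, adjusted p = 0.223). Ifi44 had 0.92 (SE 0.31, 95% interval 0.23 to 1.61, adjusted p = 0.212), with all 3 particle libraries above all 3 inflamed libraries. Ifit3b was at 25.7, 19.9 and 44.4 CPM in inflamed and 81.6, 42.8 and 38.4 CPM in particle islets, and the groups overlapped (log2 fold change 0.85, SE 0.39, adjusted p = 0.339). Ifit2 and Oas3 were at 159, 66.6 and 103 CPM and 41.5, 20.2 and 20.7 CPM in the particle libraries (log2 fold change 0.64, SE 0.35, adjusted p = 0.428 for Ifit2, and log2 fold change 0.62, SE 0.35, adjusted p = 0.442 for Oas3). In all 5 genes the highest library of the 6 was particle replicate 1.

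The 5 lowest were Ifitm1, Ifi27l2a, Ifitm3, Ifi203 and Ifitm2. Ifitm1 was at 6.28, 6.42 and 21.7 CPM in inflamed and 2.51, 0.603 and 5.32 CPM in particle islets, with no overlap (log2 fold change -2.03, SE 0.74, adjusted p = 0.234). Its 95% interval of -3.66 to -0.41 is wide. Ifitm3 was at 99.1, 47.7 and 283 CPM in inflamed and 50.7, 57.2 and 69.2 CPM in particle islets, where inflamed replicate 2 lay below every particle library (log2 fold change -1.28, SE 0.52, adjusted p = 0.283). Ifitm2 was at 16.2, 18.7 and 17.4 CPM in particle islets (log2 fold change -0.45, SE 0.29, adjusted p = 0.5002). All 3 IFITM genes were thus among the 5 lowest, and none was called. Without inflamed replicate 3 the log2 fold change was -0.31 for Ifitm3, -1.17 for Ifitm1 and 0.01 for Ifitm2. Of the 15 macrophage markers tested, 14 also had a log2 fold change below 0 and 13 lay without overlap below the inflamed libraries, with none called, and their part in the IFITM values was not tested. Ifi27l2a rested on 33 counts in particle islets (log2 fold change -1.33, SE 1.21, adjusted p = 0.651). Ifi203 was at 15.02, 27.9 and 35.4 CPM in inflamed and 20.8, 7.43 and 27.5 CPM in particle islets (log2 fold change -0.50, SE 0.65, adjusted p = 0.773). Non-overlap between particle and inflamed libraries was found for 3 of the 49 genes upward (Ifit3, Ifi44 and Tor3a) and 2 downward (Ifitm1 and Oas1g), beside 8.87% and 6.82% of all genes.

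The summed level of the 16 macrophage markers did not overlap between the groups, 1103 to 1241 CPM in inflamed and 369 to 559 CPM in particle islets. That of the 49 antiviral genes did, with 6306 to 6908 CPM in inflamed and 9547, 5332 and 5924 CPM in particle islets. Particle replicate 1 was the highest of the 6 treated libraries for 31 of the 49 genes and the lowest for 0, whereas particle replicate 2 was the highest for 0 and the lowest for 24. Relative to the mean of the inflamed libraries, the median log2 ratio over the 49 genes was 0.52 in particle replicate 1, -0.37 in replicate 2 and -0.07 in replicate 3. The 3 inflamed libraries stood at -0.15, 0.02 and 0.09, and the medians over all genes lay within 0.08 of 0 in every library. Within the particle group, replicate 1 was the highest library for 38 of the 49 and for 26.0% of all genes. Replicate 2 was the lowest for 35 of the 49 and for 35.1% of all genes. The median coefficient of variation of the 49 was 38.2% in particle islets, against 19.9% in inflamed and 20.6% in control islets, and over all genes it was 29.1%, 26.4% and 18.1%. Particle replicate 1 had the fewest counts and the lowest beta cell marker sum, and particle replicate 2 the highest endocrine marker sums of its group, and the part of these in the antiviral levels was not tested.

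**Figure D5:**
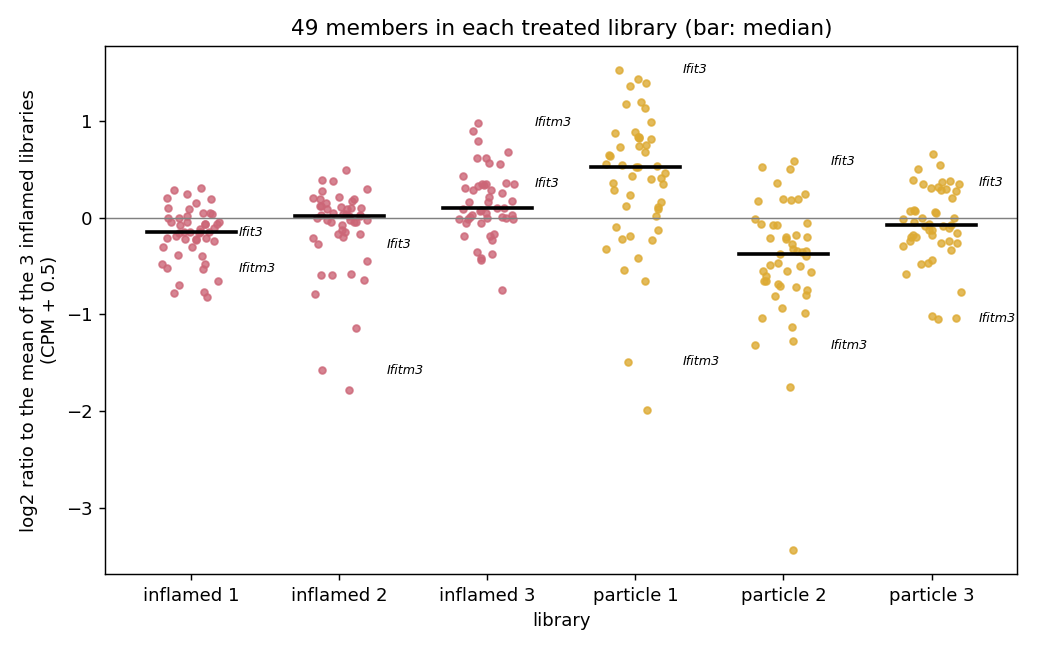
The 49 antiviral genes in each of the 6 cytokine-treated libraries, as the log2 ratio to the mean of the 3 inflamed libraries (1 point for each gene, bar at the median). The inflamed libraries centre near 0, while particle replicates 1, 2 and 3 centre at 0.52, -0.37 and -0.07.

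Particle islets were last compared with control islets, to see which antiviral genes were above the untreated level in the presence of both cytokines and particles. Of the 49 genes, 47 rose and 0 fell, where 11.4% of all genes were called higher and 5.92% lower. The median log2 fold change was 4.27, beside 0.05 over all genes. All 3 particle libraries lay above all 3 control libraries for 48 of the 49 genes, as they did for 22.9% of all genes. Adar (log2 fold change 1.29, SE 0.40, adjusted p = 0.0463) kept its call under only 7 of 19 alternative settings, Ifitm1 under 14, and Pml and Lgals3bp under 15 each. The exceptions to the call were Ifi27l2a (log2 fold change 2.55, SE 1.38, adjusted p = 0.222) and Ifitm2 (log2 fold change -0.02, SE 0.29, adjusted p = 0.976). Ifitm2 was at 17.6, 16.4 and 18.9 CPM in control and 16.2, 18.7 and 17.4 CPM in particle islets, and its 95% interval was -0.65 to 0.62. This comparison shares its control libraries with that of inflamed islets, so the counts from both are not independent. Rsad2 had log2 fold changes of 6.33 in inflamed and 6.62 in particle islets against control, Isg15 of 7.19 and 7.58, Ifit1 of 7.06 and 6.63, and Ifitm1 of 5.66 and 3.63. Of the 39 other pathway genes 23 rose and 0 fell in particle islets, beside the same 11.4% and 5.92%, Ifnl3 among them at a log2 fold change of 10.29. Among the 15 macrophage markers tested, 4 were called higher and 1 lower in particle than in control islets, beside the same 11.4% and 5.92%. Their log2 fold change was above 0 for 12 and below 0 for 3, and their part in the result was not tested.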

How the data were processed

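RNA sequencing libraries of 9 islet samples were grouped by their titles, 3 in each of 3 groups. The columns of untreated islets carry the stem islet and were matched to the control titles by stem and number. One deposited table gives read counts per gene as whole numbers, with no scaling. HTSeq, DESeq2 and the build GRCm39 were used by the authors, per the submitters' processing notes, and their roles and versions are not given in the sources used here. FPKM values, deposited for the same genes and scaled by gene length and library size, were used for levels between genes and for alternatives.

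Counts were tested in R 4.3.3 with edgeR 4.0.16: filterByExpr (smallest count of 10), TMM factors, and robust quasi-likelihood fits to all 9 libraries. P-values were adjusted by Benjamini-Hochberg over all 17276 genes in each of 3 comparisons, and calls were made where that value fell under 0.05. The SE is the size of the log2 fold change divided by the square root of F, and 95% intervals use the test's degrees of freedom. Counting intervals and the floor of 3 counts over a group cover counting error only. Chi-square per degree of freedom between replicates was 44.2 to 208.6, so no pair was a duplicate. The procedure was tested on simulated data.

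The 49 genes, the pathway lists and the cell type markers were chosen with earlier results of these data known, so their counts are not independent evidence. Named with full statistics were, in each functional group, the 2 genes with the smallest adjusted p in inflamed against control; the 5 highest and 5 lowest in particle against inflamed; and every gene not called against control. Up to 3 genes of each pathway list were named in the same way, and others were chosen after their values were seen. Some genes of the pathway lists are counted but not reported here by name. Motif matches were exact searches of both strands. Alternatives were RLE factors, library totals, no filter, at least 1 CPM in 3 libraries, DESeq2 1.42.0, limma-voom, and limma-trend (limma 3.58.1) after adding 1 or 0.1 to FPKM and taking log2, fits of only 6 libraries, a replicate block, and leaving out each library.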

Additional observations from a re-analysis of the deposited data

How the results depend on the processing

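No member was called lower against control, and none was called between particle and inflamed islets, under any of the 10 alternative settings or the 9 leave-one-out fits. Leaving out 1 library at a time gave 44 to 47 genes higher in inflamed and 43 to 47 higher in particle against control islets. The median log2 fold change of the 49 genes was then 4.32 to 4.53 (inflamed) and 4.02 to 4.33 (particle), with the lowest inflamed value without control replicate 1. With limma on log2(FPKM + 1), which compresses low genes, it was 2.61 in both comparisons, and with a pseudocount of 0.1 it was 4.08 in inflamed islets. Ifitm2 changed sign: leaving out 1 library gave -0.07 to 0.66 for inflamed against control and -0.68 to 0.01 for particle against inflamed, with the change of sign without inflamed replicate 3, and -0.11 to 0.03 for particle against control, positive without particle replicate 1. That last value was 0.25 with library totals and 0.0043 with only 6 libraries. Library totals without TMM factors moved the median of all genes by 0.177 and 0.271 against control. The calls over all genes were then 4240 higher and 2605 lower in inflamed (3568 and 3274 with TMM), and 3193 and 597 in particle islets (1961 and 1022). The filter at 1 CPM left Ifi27l2a out, and 48 of the 49 were tested. The labels state no pairing. Deviations of same-numbered libraries from their group means correlated at -0.184 to 0.206, which cannot settle whether replicate numbers pair the samples. With a replicate block 47 of the 49 rose in inflamed and 46 in particle islets against control, Ifi27l2a being lost in the former and Adar in the latter, and 0 were called between particle and inflamed islets. With 3 libraries a group, the intervals of low or variable genes, such as Ifi27l2a and Ifitm1, are wide and do not exclude 2-fold changes between particle and inflamed islets.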
